A study of Mus musculus with 6 samples.

Results

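The unfolded protein response is described here through 10 genes, 3 stress sensors of the endoplasmic reticulum and the transcription factors that work with them, in mouse colon tumours of 2 genotypes. The genes were chosen by name, with earlier results of these data known. They are Ern1, Ern2 and Xbp1 of the IRE1 arm, and Atf6 with its relatives Creb3l1, Creb3l3 and Creb3l4. The PERK arm adds Eif2ak3, Atf4 and Ddit3. All 10 were measured, among 19938 genes with a probe set of their own, and each of the 10 had 1 probe set. Expression was measured on arrays in 6 tumours, 3 per genotype, and every mouse carried ApcMin, a truncating mutation of Apc that gives intestinal tumours. Control tumours (Dnmt1chip/+; ApcMin/+) had a hypomorphic allele, chip, opposite a wild-type one at Dnmt1, which encodes the enzyme that maintains DNA methylation. Hypomethylated tumours (Dnmt1chip/c; ApcMin/+) had the chip allele opposite a knockout allele, c, so both groups carried a hypomorphic Dnmt1 allele and the Apc mutation. Both groups were F1 hybrids of C57BL/6, the side that brought ApcMin, and 129Sv4, the side that brought chip. From 6 weeks of age they received 2% dextran sodium sulfate, an agent that injures the colon lining, and tumours were taken at 20 weeks. Each sample is whole tumour tissue. The labels do not state that the tumours are from different animals: 1 number recurs in the descriptions of all 3 hypomethylated tumours and another in those of 2 of the 3 controls. The p-values therefore measure the spread between these tumours.

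The endoplasmic reticulum folds the proteins that a cell secretes or places in its membranes, and the unfolded protein response adjusts its capacity to the load. IRE1 is an RNase that splices the mRNA of Xbp1 into its active form, PERK phosphorylates eIF2α and so slows translation while favouring that of Atf4, and ATF6 moves to the Golgi, where proteases release its transcription factor domain. In the gut the response is best known from goblet and Paneth cells, whose mucins and granule proteins burden the endoplasmic reticulum. Much of this regulation acts on splicing, phosphorylation and cleavage, none of which a gene-level array value shows.

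Values are on the log2 scale with the median of every probe set over the 6 tumours set to zero, so they give differences between tumours and no level, and the levels of different genes cannot be compared. Differences are hypomethylated minus control, with the standard error from limma, and a gene was called where limma's Benjamini-Hochberg adjusted p over all genes was under 0.05. By this rule 10.7% of all genes were called higher and 21.3% lower. The epithelial markers Epcam, Cdh1, Krt8, Krt18, Krt19, Vil1 and Cdx2 were all on a value step that fits probe sets bright on every array. Of these 7, 5 were also higher in the hypomethylated tumours. Cdx2, an intestinal transcription factor, rose by 3.49 ± 0.23 (SE) and Vil1, a brush border protein gene, by 1.02 ± 0.09. Cdh1 rose by only 0.18 ± 0.06, and Epcam (0.06 ± 0.06) and Krt18 (-0.02 ± 0.06) were not called. The markers therefore did not rise alike, and the part of these changes in the members' differences was not tested. Dnmt1 fell by 0.87 ± 0.06 (SE), 1.83-fold lower in the hypomethylated tumours (adjusted p = 3.13e-04). No member lies on chromosome 9, which carries Dnmt1.

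Of the 10 members, 4 rose in the hypomethylated tumours, 2 fell and 4 were not called. The genes that rose were Creb3l3, Ern2, Creb3l1 and Ddit3, and those that fell were Ern1 and Eif2ak3. In 7 of the 10 the tumours of one group lay wholly above those of the other, where 46.4% of all genes did so. The median difference over the members was -0.0084, beside -0.0058 over all genes. Against the background of 10.7% higher and 21.3% lower, 4 of 10 is a larger share and 2 of 10 a similar one, in a list too short for a comparison of shares. For 9 of the 10 all values were taken to lie at 8 or above before centring; Creb3l3 was the exception. Among the 10160 genes of that bright class, fitted alone, 16.4% were called higher and 37.6% lower, and 3 of the 9 members were called higher and 2 lower. The members called higher numbered 2 without control replicate 1, 2 or 3. Those called lower numbered 1 without control replicate 1 and 0 without control replicate 2 or 3 or hypomethylated replicate 2 or 3, where limma gave unadjusted p under 0.05 for 1, 2, 2 and 3 members in the lower direction.

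**Figure D1:**
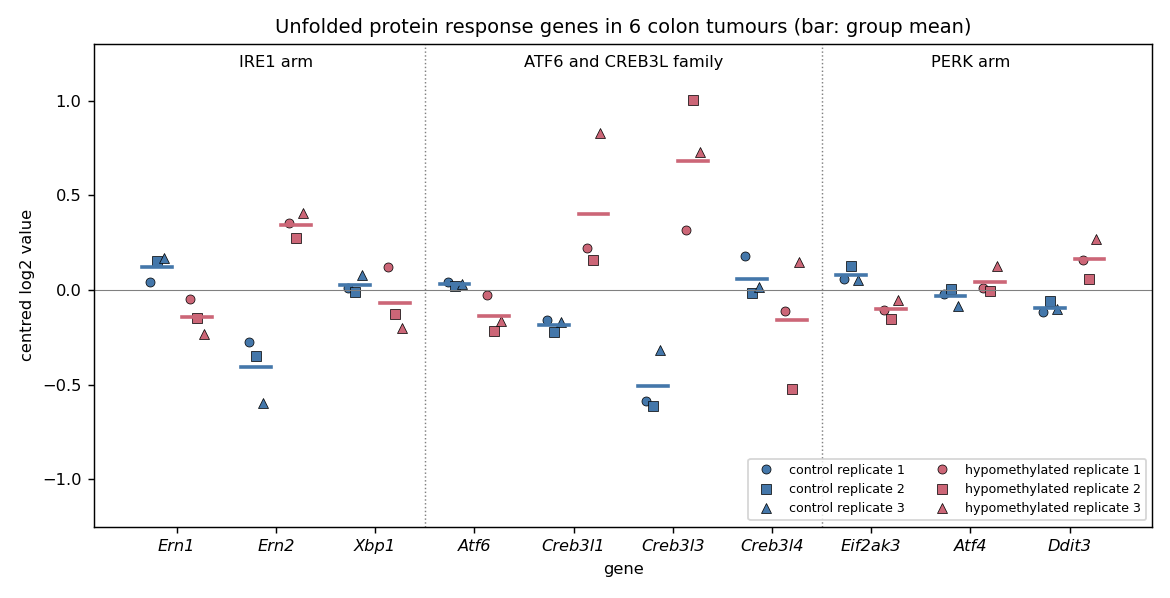
Centred log2 value of each member in the 6 tumours (vertical axis), genes ordered by arm; colours mark the genotype, symbols the replicate and bars the group means (n = 3). The largest separations are for Creb3l3 and Ern2, while Xbp1, Creb3l4 and Atf4 have overlapping groups.

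Both IRE1 genes were called, in opposite directions, and their substrate Xbp1 was not called. Ern2 encodes IRE1β, the IRE1 form restricted to mucosal epithelium and found in the gut mainly in goblet cells. Its centred values were -0.28, -0.35 and -0.60 in control replicates 1, 2 and 3 and 0.35, 0.28 and 0.41 in hypomethylated replicates 1, 2 and 3. The 2 groups were separated by a gap wider than the range of either. Their means were -0.41 ± 0.17 (SD, n = 3) and 0.35 ± 0.07 (SD, n = 3), so that Ern2 rose by 0.75 ± 0.09 (SE; 95% interval 0.53 to 0.97), or 1.68-fold (limma, adjusted p = 0.00154). Its call held in all 14 other fits, with differences of 0.66 to 0.82. In this whole tissue, more cells of a type and more RNA per cell cannot be told apart. Goblet markers moved with Ern2 between the groups: 10 of 14 measured rose and 0 fell (limma, with 12 higher and 0 lower at an unadjusted p under 0.05). The mean of the list ran from -1.59 to -0.46 in control and from 0.35 to 0.78 in hypomethylated tumours. Within the groups it did not always follow Ern2. Control replicate 3 had the lowest Ern2 (-0.60) and the highest list mean of the controls (-0.46). Hypomethylated replicate 3 was the highest of its group in both. Single goblet markers differed in their order among the controls. Control replicate 3 was the highest control in Muc2, Tff3, Clca1 and Retnlb. Control replicate 1, which had the highest Ern2 of the controls, was the highest in Agr2, Spdef, Atoh1 and St6galnac1. The list mean weighs wide-ranging genes most, such as Clca1, at -4.96 in control replicate 2 and -0.47 in control replicate 3. Of the goblet markers Agr2, a disulfide isomerase of the mucin pathway, rose by 1.17 ± 0.10 (SE). Spdef, a goblet cell transcription factor, rose by 1.29 ± 0.17 and the mucin gene Muc2 by 1.41 ± 0.35. Without hypomethylated replicate 2 or 3 the call of Muc2 was lost. The part of goblet cell number in the Ern2 difference was not tested.

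Ern1 encodes IRE1α, the form found in nearly all cells. Its values were 0.04, 0.15 and 0.17 in control and -0.04, -0.15 and -0.23 in hypomethylated tumours. The groups did not overlap, but control replicate 1 and hypomethylated replicate 1 lay close together. Ern1 fell by 0.26 ± 0.07 (SE; 95% interval -0.43 to -0.10), 1.20-fold (limma, adjusted p = 0.0271), from a mean of 0.12 ± 0.07 (SD, n = 3) to -0.14 ± 0.09 (SD, n = 3). Leaving out control replicate 2 or 3 ended this call (adjusted p = 0.086 and 0.0816), as did leaving out hypomethylated replicate 2 or 3 (0.0693 and 0.0784).

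The paralogues were also set against each other within each tumour. Ern2 minus Ern1 was -0.32, -0.50 and -0.77 in control and 0.40, 0.42 and 0.64 in hypomethylated tumours. The separation of the groups follows from that of the 2 genes, each already separated in opposite directions, so that only the size of the shift is new; zero reflects the centring and not equal abundance. The mean moved from -0.53 ± 0.22 (SD, n = 3) to 0.49 ± 0.13 (SD, n = 3), a shift of 1.02, or 2.02-fold, in the balance of the 2 genes. The exact two-sided permutation test over tumours gave p = 0.1, the smallest that 3 against 3 allows and a value that this separation fixes. The shift was 0.90 to 1.12 with each tumour left out in turn.

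Xbp1, whose spliced form drives chaperone and secretory genes, had values of 0.01, -0.01 and 0.08 in control and 0.12, -0.13 and -0.20 in hypomethylated tumours. Hypomethylated replicate 1 was above all controls and the other two were below them. The difference was -0.10 ± 0.09 (SE; 95% interval -0.31 to 0.12; limma, adjusted p = 0.482), so that total Xbp1 mRNA did not pass the test. The probe set does not separate spliced from unspliced Xbp1.

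The bZIP factors anchored in the endoplasmic reticulum membrane did not move as a family. Atf6, Atf6b, Creb3 and Creb3l1 to Creb3l4 make up this family of 7, and 3 rose, 2 fell and 2 were not called. Over all genes 10.7% were called higher and 21.3% lower, and 7 genes are too few for a comparison of shares. Creb3l3 encodes CREBH, known from liver and small intestine for control of lipid and acute-phase genes. It measured -0.58, -0.61 and -0.32 in control and 0.32, 1.00 and 0.73 in hypomethylated tumours. Every hypomethylated tumour lay above every control, with hypomethylated replicate 1 nearest to them. With means of -0.50 ± 0.16 (SD, n = 3) and 0.68 ± 0.35 (SD, n = 3), Creb3l3 rose by 1.19 ± 0.17 (SE; 95% interval 0.78 to 1.60), 2.28-fold (limma, adjusted p = 0.00295). The call held in all 13 other fits that included it, at 1.03 to 1.37. Creb3l3 alone was not in the bright class, and its level is not known. If its control values lay near the array floor, this fold would understate the change. The mean of the absorptive colonocyte markers ranked the tumours in the same order as Creb3l3. That mean was -1.64, -2.06 and -1.11 in control and 1.09, 1.81 and 1.60 in hypomethylated tumours. The part of absorptive cells in the Creb3l3 difference was not tested.

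Creb3l1 encodes OASIS, a factor known for the maturation of colonic goblet cells. It measured -0.16, -0.22 and -0.17 in control and 0.22, 0.16 and 0.83 in hypomethylated tumours. The controls were tightly grouped, and hypomethylated replicate 3 stood above the other two of its group. Creb3l1 rose by 0.59 ± 0.17 (SE; 95% interval 0.18 to 0.99), 1.50-fold (limma, adjusted p = 0.0364), from -0.18 ± 0.03 (SD, n = 3) to 0.40 ± 0.37 (SD, n = 3). Without hypomethylated replicate 3 the difference was 0.37 (adjusted p = 0.0112), and without control replicates 1, 2 and 3 the adjusted p was 0.0895, 0.1 and 0.081. The goblet marker mean was also highest in hypomethylated replicate 3, at 0.78 beside 0.35 and 0.47, and the part of goblet cells in the Creb3l1 difference was not tested.

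Atf6, the founding member, had 0.04, 0.02 and 0.03 in control and -0.02, -0.22 and -0.16 in hypomethylated tumours. All 3 hypomethylated tumours were lower than the controls, replicate 1 by the least. The difference of -0.17 ± 0.07 (SE; 95% interval -0.32 to -0.01) did not pass (limma, adjusted p = 0.0975). It passed without hypomethylated replicate 1, at -0.22 (adjusted p = 0.0298). Creb3l4, a relative best known from prostate and testis, had 0.18, -0.02 and 0.02 in control and -0.11, -0.52 and 0.15 in hypomethylated tumours. Its groups overlapped and the difference was -0.22 ± 0.16 (SE; 95% interval -0.60 to 0.16; limma, adjusted p = 0.363). Of the relatives outside the 10 members, Creb3l2, which serves secretory expansion in cartilage, fell by 0.55 ± 0.09, while Atf6b fell by 0.34 ± 0.07 and Creb3 rose by 0.24 ± 0.07; Atf6b and Creb3 are named for completeness of the family.

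DNA methylation was not measured on these arrays, so the CpG sites of the promoters are shown only as context for a genotype that lowers methylation. RefSeq (GRCm38.p6) promoter windows were matched for 7 of the 10 members. The 250 bases before the start are given 5′ to 3′ on the gene's strand with each CpG in capitals, for the called gene with the largest change, Creb3l3 (2 starts, both on the minus strand), and for the called genes Ern1 (minus strand) and Ddit3 (plus strand) of the other arms. They span chr10:81092592-81092841 and chr10:81098873-81099122 for Creb3l3, chr11:106487797-106488046 for Ern1 and chr10:127290543-127290792 for Ddit3.
Creb3l3, inner start: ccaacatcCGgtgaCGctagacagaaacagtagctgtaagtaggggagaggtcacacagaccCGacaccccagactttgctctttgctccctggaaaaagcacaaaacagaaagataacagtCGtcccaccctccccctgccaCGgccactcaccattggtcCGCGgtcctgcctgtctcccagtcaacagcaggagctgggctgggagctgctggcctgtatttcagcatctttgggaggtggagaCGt
Creb3l3, outer start: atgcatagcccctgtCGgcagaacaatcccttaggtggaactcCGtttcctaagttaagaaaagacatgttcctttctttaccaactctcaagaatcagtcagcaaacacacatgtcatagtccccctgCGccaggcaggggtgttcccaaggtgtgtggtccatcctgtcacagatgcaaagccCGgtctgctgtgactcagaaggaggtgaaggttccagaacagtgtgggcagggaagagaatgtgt
Ern1: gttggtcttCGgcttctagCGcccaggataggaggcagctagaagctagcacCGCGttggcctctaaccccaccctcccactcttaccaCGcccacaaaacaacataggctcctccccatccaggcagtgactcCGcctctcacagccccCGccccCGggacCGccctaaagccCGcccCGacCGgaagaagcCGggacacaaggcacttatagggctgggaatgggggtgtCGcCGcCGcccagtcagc
Ddit3: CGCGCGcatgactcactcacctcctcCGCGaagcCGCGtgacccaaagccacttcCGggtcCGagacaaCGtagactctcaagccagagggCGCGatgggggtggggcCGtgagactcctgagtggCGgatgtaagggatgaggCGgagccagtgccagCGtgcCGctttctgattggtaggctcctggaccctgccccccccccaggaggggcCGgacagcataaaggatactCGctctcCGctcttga
The Creb3l3 windows hold 8 and 4 CpG sites, beside 16 for Ern1 and 20 for Ddit3, where the median over all windows was 6. The window of Eif2ak3, which fell, holds 14. Among the members not called, the window of Atf4 holds 18, that of Xbp1 8 and those of Creb3l4 9, 6 and 10. Ern2 and Creb3l1, which rose, and Atf6, which was not called, had no window. Called and uncalled members can therefore not be compared in full, and a link of CpG number with the differences was not tested.

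In the PERK arm the sensor fell slightly, the downstream factor Ddit3 rose slightly and Atf4 between them was not called. Eif2ak3 encodes PERK. Its values were 0.06, 0.13 and 0.05 in control and -0.10, -0.15 and -0.05 in hypomethylated tumours. The groups did not overlap, and the spread within each was small. Eif2ak3 fell by 0.18 ± 0.06 (SE; 95% interval -0.31 to -0.05), 1.13-fold (limma, adjusted p = 0.0477), from 0.08 ± 0.04 (SD, n = 3) to -0.10 ± 0.05 (SD, n = 3). This call was at the edge of the threshold: it was lost without any single tumour, with adjusted p of 0.126, 0.149 and 0.0846 without control replicates 1, 2 and 3 and 0.085, 0.121 and 0.0603 without hypomethylated replicates 1, 2 and 3. It was also lost after quantile normalization (0.0623) and after centring each array on its median (0.0605).

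Atf4, the factor whose translation PERK favours, had -0.02, 0.00 and -0.08 in control and 0.01, 0.00 and 0.13 in hypomethylated tumours. The groups overlapped, and the difference was 0.08 ± 0.06 (SE; 95% interval -0.07 to 0.22; limma, adjusted p = 0.389). Ddit3 encodes CHOP, the factor tied to cell death under lasting stress. It measured -0.12, -0.06 and -0.10 in control and 0.16, 0.06 and 0.27 in hypomethylated tumours. All hypomethylated tumours were above the controls, replicate 2 by the least. Ddit3 rose by 0.25 ± 0.07 (SE; 95% interval 0.09 to 0.42), 1.19-fold (limma, adjusted p = 0.0285), from -0.09 ± 0.03 (SD, n = 3) to 0.16 ± 0.11 (SD, n = 3). Its call was lost without control replicates 1, 2 and 3 (adjusted p = 0.105, 0.063 and 0.0746) and without hypomethylated replicates 1 and 3 (0.0538 and 0.0733).

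**Figure D2:**
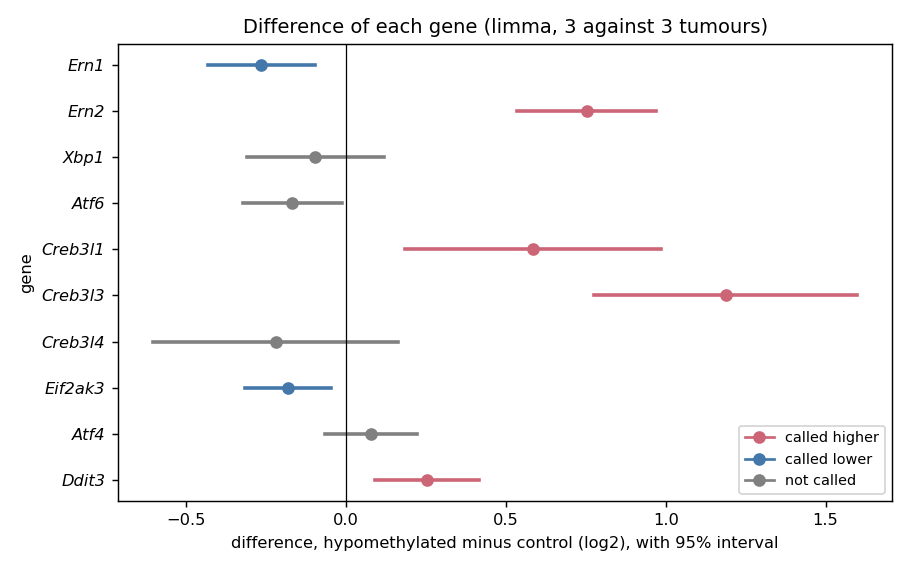
Difference of each member between the genotypes (log2, hypomethylated minus control) with its 95% interval from limma, genes ordered by arm, with red for genes called higher, blue for lower and grey for those not called. Creb3l3 at 1.19, Ern2 at 0.75 and Creb3l1 at 0.59 stand to the right, and the other members lie between -0.26 and 0.25.

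Ordered by difference, the members ran from Creb3l3 through Ern2, Creb3l1, Ddit3, Atf4, Xbp1, Atf6, Eif2ak3 and Creb3l4 to Ern1, and the 95% intervals of all neighbours in this order overlapped. Every called member had an exact two-sided permutation p of 0.1, the smallest that 20 assignments of 3 against 3 allow. The genes closest in profile to Creb3l3, by root mean square distance over the 6 tumours, were Tbc1d2 (0.070), Klc4 (0.084) and Pgap4 (0.094), and 119 genes lay within 0.2. Those closest to Ern2 were Gm10791 (0.051), Clec2g (0.057) and Tnfaip8 (0.067), with 334 genes within 0.2.

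The wider pathway was followed in 8 lists of other genes, of which 146 of 155 were measured. Of these 22 rose and 34 fell, with a median difference of -0.01. Over all genes 10.7% were called higher and 21.3% lower, and in the bright class 16.4% and 37.6%. In both directions the share of the 146 lay between these. The same shares are the background for the counts of each list below. The middle of all genes, from the lower to the upper quartile, ran from -0.21 to 0.11. The pathway count of higher genes was 10 without control replicate 1, the lowest among the 6 fits that left out a tumour, and 12 without control replicate 2; the count of lower genes was 19 without control replicate 1.

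**Figure D3:**
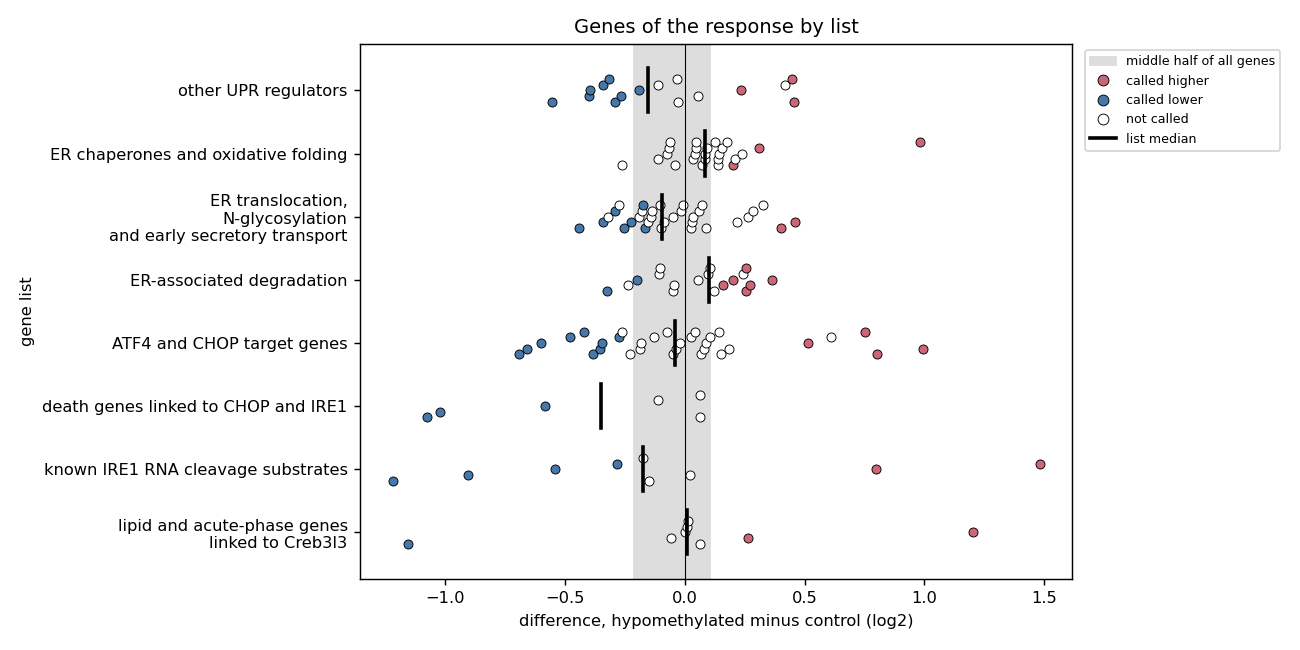
Difference of each measured gene of the 8 lists (log2, hypomethylated minus control); red points were called higher, blue lower and white not called, black bars are list medians and the grey band spans the quartiles of all genes. ER-associated degradation has the highest median (0.10) and the death genes the lowest (-0.35).

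Among 16 measured regulators beside the members, 3 rose and 8 fell, with a median of -0.15. The bright class, of which 16.4% were called higher and 37.6% lower, held all 16. Eif2ak4, the amino acid sensing kinase GCN2 that also phosphorylates eIF2α, fell by 0.40 ± 0.05 (SE). Its values were 0.23, 0.18 and 0.19 in control and -0.23, -0.19 and -0.18 in hypomethylated tumours, a clear separation. Of the 4 kinases of eIF2α, 2 fell (Eif2ak3 and Eif2ak4) and 2 were not called. The regulatory subunits that reverse this phosphorylation moved apart: the constitutive Ppp1r15b rose by 0.45 ± 0.08, and the stress-induced Ppp1r15a, also known as GADD34, fell by 0.19 ± 0.06. The call of Ppp1r15a was lost without any single tumour. Tmbim6, an inhibitor of cell death that binds IRE1α, rose by 0.46 ± 0.08. The 8 lower calls in this list became 5 without control replicate 2.

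The classical chaperone targets changed little, with most differences above zero but not in every tumour. Of 25 genes for chaperones and oxidative folding, all measured, 3 rose, 0 fell (limma; 1 lower at an unadjusted p under 0.05) and 22 were not called, and 19 of 25 differences were positive. The median was 0.09, and the median size of a difference was 0.11 beside 0.15 over all genes. The share of higher calls was near the 10.7% of all genes. The list mean was -0.06, -0.01 and -0.06 in control and 0.11, -0.03 and 0.10 in hypomethylated tumours. Hypomethylated replicate 2 thus lay within the range of the controls. The bright class, which held 22 of the 25, had a median difference of -0.12, with 16.4% called higher and 37.6% lower. Hspa5, the chaperone BiP that holds all 3 sensors inactive, had 0.04, 0.04 and -0.06 in control and 0.02, -0.17 and -0.02 in hypomethylated tumours. Its groups overlapped, with a difference of -0.06 ± 0.07 (SE; limma, adjusted p = 0.559). Hsp90b1 (0.12 ± 0.07), the IRE1α-binding co-chaperone gene Dnajb9 (0.07 ± 0.06) and Sdf2l1 (0.04 ± 0.09) were not called either. Ero1a, the oxidase that recharges disulfide isomerases, was the exception: it had -0.55, -0.35 and -0.46 in control and 0.58, 0.66 and 0.35 in hypomethylated tumours. This gene rose by 0.98 ± 0.10, or 1.98-fold (limma, adjusted p = 7.64e-04). Dnajc10 (0.31 ± 0.10) and Dnajb11 (0.20 ± 0.06) also rose. The count of 3 was 1 without control replicates 1, 2 or 3 or hypomethylated replicate 3 and after centring each array on its median, 5 with the description number as a random block and 8 with array weights.

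Many of these genes carry the endoplasmic reticulum stress element, ERSE, to which ATF6 and XBP1 bind. Its letters, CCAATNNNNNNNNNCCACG, were searched on both strands in RefSeq windows from 250 bases before to 50 after each start, together with the shorter ERSE-II, ATTGGNCCACG. ERSE was found in 39 of 32851 windows (0.119%) and ERSE-II in 12 (0.0365%). On the chaperone list 8 of 22 genes with a window had ERSE, and 1 more, Dnajb11, had ERSE-II. On the degradation list of 15 genes with a window, Derl3 and Syvn1 had ERSE and Herpud1 had ERSE-II. The sites are shown because these genes read out the ATF6 and XBP1 branch; capitals mark the element, and each is written 5′ to 3′ on the gene's strand with 12 flanking bases on each side, so that a reversed element begins with CGTGG.
Hspa5: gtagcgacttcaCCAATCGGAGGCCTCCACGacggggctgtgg
Hsp90b1, inner site: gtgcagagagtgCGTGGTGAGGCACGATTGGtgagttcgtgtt
Hsp90b1, outer site: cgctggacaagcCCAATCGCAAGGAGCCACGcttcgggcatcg
Calr: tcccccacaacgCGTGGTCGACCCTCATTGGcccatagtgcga
Canx: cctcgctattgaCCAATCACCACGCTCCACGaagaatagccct
Creld2: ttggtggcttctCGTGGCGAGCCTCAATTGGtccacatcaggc
Dnajc3: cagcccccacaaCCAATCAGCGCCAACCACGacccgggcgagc
Ero1b: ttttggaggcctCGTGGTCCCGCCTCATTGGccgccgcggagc
Pdia6: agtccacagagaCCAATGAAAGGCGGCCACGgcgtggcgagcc
Syvn1: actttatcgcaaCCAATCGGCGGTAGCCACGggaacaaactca
Derl3: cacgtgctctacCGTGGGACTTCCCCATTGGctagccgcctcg
Herpud1: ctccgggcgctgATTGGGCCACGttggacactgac
On GRCm38.p6 these windows lie, in the same order, as follows: Hspa5 at chr2:34772013-34772055 (plus strand), Hsp90b1 inner site at chr10:86705521-86705563 (minus strand), Hsp90b1 outer site at chr10:86705626-86705668 (minus strand), Calr at chr8:84847063-84847105 (minus strand). Next come Canx at chr11:50325788-50325830 (minus strand), Creld2 at chr15:88819508-88819550 (plus strand), Dnajc3 at chr14:118937815-118937857 (plus strand), Ero1b at chr13:12565670-12565712 (plus strand). The last are Pdia6 at chr12:17266479-17266521 (plus strand), Syvn1 at chr19:6046520-6046562 (plus strand), Derl3 at chr10:75893230-75893272 (plus strand), Herpud1 at chr8:94386365-94386399 (plus strand).
The ERSE sites share their ends around a spacer that differs between sites and occur in both orientations, 25 to 193 bases before the start. The Herpud1 line holds the shorter ERSE-II, 41 bases before the start. The ERSE-II of Dnajb11 lies after the start and is not shown. Of 30 tested genes with either element, 8 rose, 3 fell and 19 were not called, with a median of 0.09. Over all genes 10.7% were called higher and 21.3% lower. Of the 12 on a pathway list, Herpud1, Syvn1 and Dnajb11 rose and the other 9, Hspa5, Hsp90b1, Calr, Canx, Creld2, Dnajc3, Ero1b, Pdia6 and Derl3, were not called. The calls of Herpud1, Syvn1 and Dnajb11 held in 9, 8 and 5 of 14 other fits. Among listed carriers, hypomethylated replicate 1 was highest in Derl3 (0.63) and hypomethylated replicate 2 lowest in Hspa5 (-0.17). Shorter elements were commoner: UPRE (TGACGTGG) was in 222 windows (0.676%), CRE (TGACGTCA) in 588 (1.79%) and the ATF4 element (TGATGNAAT) in 317 (0.965%). The tested genes that hold them had median differences of -0.04, -0.10 and 0.02. None of the 5 elements matched in the 10 windows of the 7 members that have one.

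**Figure D4:**
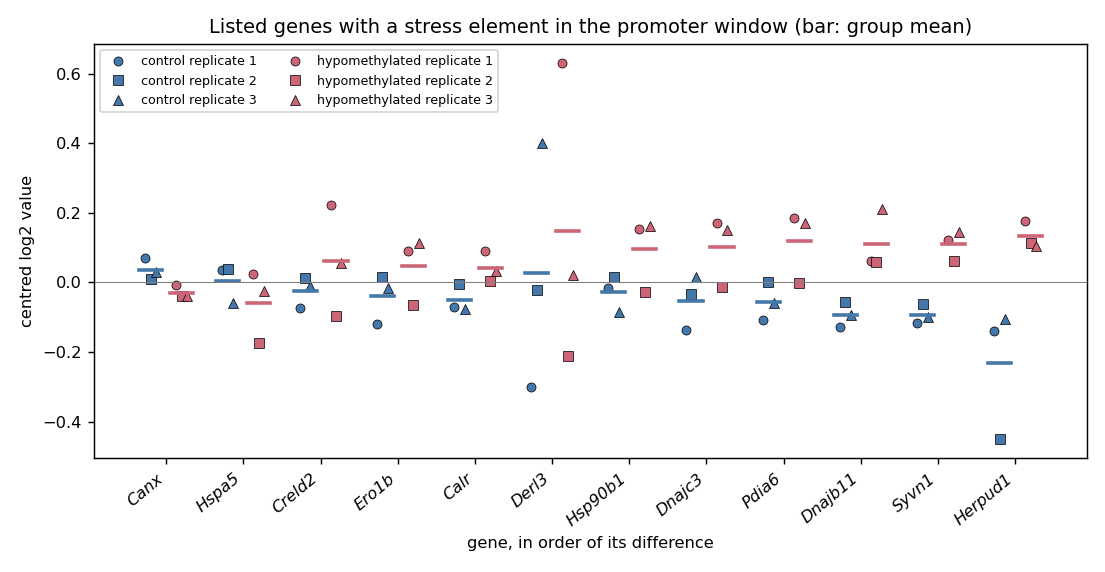
Centred log2 value in the 6 tumours of the 12 listed genes with an ERSE or ERSE-II match, in order of their difference; colours mark the genotype, symbols the replicate and bars the group means (n = 3). The values of Dnajb11, Syvn1 and Herpud1, on the right, do not overlap between the genotypes, and those of Hspa5 and Derl3 do.

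ER-associated degradation returns misfolded proteins to the cytosol for the proteasome. Of 18 measured genes of this process, 6 rose, 2 fell and 10 were not called, with a median of 0.10 and 11 of 18 differences above zero. The bright class, which held all 18, had a median difference of -0.12, with 16.4% called higher and 37.6% lower. The Edem genes, of the mannosidase-like family that marks misfolded glycoproteins, rose: Edem3 by 0.27 ± 0.06 (SE), Edem2 by 0.26 ± 0.06 and Edem1 by 0.25 ± 0.07. Their calls held in 10, 11 and 9 of 14 other fits. Man1b1 of the same family, named after its value was seen, rose by 0.16. Herpud1, a scaffold of the degradation complex, had -0.14, -0.45 and -0.11 in control and 0.18, 0.11 and 0.11 in hypomethylated tumours. Control replicate 2 was the lowest, and Herpud1 rose by 0.36 ± 0.10 (limma, adjusted p = 0.0278). Syvn1, the ubiquitin ligase HRD1 of this complex, rose by 0.20 ± 0.05, and Faf2, a recruiter of the segregase VCP, fell by 0.32 ± 0.07. The count of 6 higher genes depended on single tumours: it was 0 without control replicate 1 (limma; 5 at an unadjusted p under 0.05), 1 without control replicate 2, and 2, 3 and 2 without hypomethylated replicates 1, 2 and 3.

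Of 32 measured genes for entry into the endoplasmic reticulum and early transport, 2 rose, 7 fell and 23 were not called, with a median of -0.09. The share of lower calls was near the 21.3% of all genes and under the 37.6% of the bright class, which held 31 of the 32. The translocation channel helpers Sec62 and Sec63 fell by 0.44 ± 0.08 (SE) and 0.34 ± 0.06, and Dad1, a subunit of the oligosaccharyltransferase, fell by 0.25 ± 0.05. Fkbp11, a prolyl isomerase of secretory cells, rose by 0.46 ± 0.10. The count of lower genes was 2 and 3 without control replicates 1 and 3 and 3 without hypomethylated replicate 2, and that of higher genes was 0 (limma; 2 at an unadjusted p under 0.05), 1 and 1 without control replicates 1, 2 and 3.

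Of 32 measured targets of ATF4 and CHOP, 4 rose, 9 fell and 19 were not called, with a median of -0.04. These shares were slightly above the 10.7% and 21.3% of all genes and under the 16.4% and 37.6% of the bright class, which held 30 of the 32. Cth, which makes cysteine, had -0.35, -0.36 and -0.34 in control and 0.34, 0.81 and 0.77 in hypomethylated tumours. It rose by 0.99 ± 0.12 (SE), 1.99-fold, and Stc2, a secreted glycoprotein, rose by 0.80 ± 0.11. The stress protein gene Nupr1 rose by 0.75 ± 0.13 and the asparagine synthetase gene Asns by 0.51 ± 0.10. Among those that fell was Phgdh, the first enzyme of serine synthesis, by 0.66 ± 0.09. The stress-induced genes Atf3 (0.04 ± 0.11), Trib3 (0.09 ± 0.08) and Chac1 (0.18 ± 0.23) were not called. Chac1 was high in 1 tumour, hypomethylated replicate 1, at 0.71, beside -0.25 and 0.03 in the other two. The lower calls numbered 5 without control replicate 1 or 2.

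Of the 6 death genes linked to CHOP and IRE1, 3 fell and 0 rose (limma; 0 higher at an unadjusted p under 0.05), with a median of -0.35. The bright class, of which 16.4% were called higher and 37.6% lower, held 5 of the 6. Bcl2l11, the killer protein BIM, had 0.45, 0.46 and 0.39 in control and -0.39, -0.58 and -0.80 in hypomethylated tumours. It fell by 1.02 ± 0.10 (SE), 2.03-fold (limma, adjusted p = 7.92e-04), while Ddit3, a factor known to induce it, rose. The survival gene Bcl2, which CHOP is known to repress, fell by 0.59 ± 0.14, and the caspase gene Casp12 fell by 1.07 ± 0.32. Whether CHOP acted on Bcl2l11 or Bcl2 in these tumours was not tested. Without control replicate 2 the count was 1, with the calls of Bcl2 and Casp12 lost; that of Casp12 was also lost without control replicate 1 or 3 or hypomethylated replicate 2 or 3.

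Of 9 mRNAs known to be cut by IRE1, 2 rose and 4 fell, with a median of -0.17. The bright class, of which 16.4% were called higher and 37.6% lower, held all 9. Pmp22, a membrane protein gene, rose by 1.48 ± 0.34 (SE) and Galnt10, a mucin-type glycosyltransferase gene, by 0.80 ± 0.09. Those that fell included Pdgfrb by 1.22 ± 0.18, Sparc by 0.91 ± 0.15 and Col6a1 by 0.54 ± 0.09, genes that stromal cells express strongly. Fibroblast markers moved with them, with 6 of 10 lower and 1 higher and list means of 0.06 to 0.43 in control and -0.51 to -0.06 in hypomethylated tumours; their part in the result was not tested. The 6 lower fibroblast calls became 3 without control replicate 2 or 3 and 2 without hypomethylated replicate 3. The call of Pmp22 was lost without hypomethylated replicate 2.

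Of 8 measured lipid and acute-phase genes linked to Creb3l3, 2 rose and 1 fell, with a median of 0.01. Cidec, a lipid droplet protein gene, had -0.45, -0.51 and -0.39 in control and 0.39, 1.21 and 0.67 in hypomethylated tumours. It rose by 1.20 ± 0.19 (SE), 2.30-fold (limma, adjusted p = 0.00384). Apoa1, an apolipoprotein gene, rose by 0.27 ± 0.08, a call lost without control replicate 1, 2 or 3 or hypomethylated replicate 2 or 3, and the hepcidin gene Hamp fell by 1.15 ± 0.25. None of the 8 was in the bright class, so their values may lie near the floor of the array.

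The response runs hardest in secretory cells, so markers of the cells a colon tumour can hold are given beside it. Paneth markers had 1 of 5 higher and 1 lower, with list means of -0.11 to 0.19 in control and -0.12 to 0.26 in hypomethylated tumours; both calls were lost without control replicate 1 or hypomethylated replicate 2. Enteroendocrine markers had 6 of 12 higher and 1 lower, with means of -0.30 to -0.07 and 0.19 to 0.31. Plasma cells, which depend on Xbp1, had no marker of 13 called (limma; 0 higher and 2 lower at an unadjusted p under 0.05). Among the alternatives, array weights gave 1 higher call, the description number as a random block 2 lower, and the fit without hypomethylated replicate 1 and that of the bright class 1 lower each. Their list mean varied within groups, at -0.48, -0.08 and 0.43 in control and 0.75, -0.26 and 0.02 in hypomethylated replicates 1, 2 and 3. Hypomethylated replicate 1, highest in this list, was also the highest of its group in Xbp1, Derl3 and Chac1, and the part of plasma cells in those values was not tested.

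Some marker lists of cells outside the secretory lineage differed too. Absorptive colonocyte markers had 10 of 11 higher, with means of -2.06 to -1.11 in control and 1.09 to 1.81 in hypomethylated tumours. Smooth muscle markers had 3 of 6 lower (means 0.13 to 0.36 and -0.36 to -0.11). Endothelial markers had 3 of 6 lower and 1 higher (0.05 to 0.18 and -0.40 to -0.05). Macrophage markers had 2 of 8 lower, and their list means overlapped between the groups (-0.05 to 0.42 and -0.76 to 0.07). This macrophage share was near the 21.3% of all genes called lower. It was under the 37.6% of the bright class, which held 7 of the 8. The 2 macrophage calls became 0 without control replicate 1, 2 or 3 or hypomethylated replicate 2 or 3 (limma; 2 to 4 lower at an unadjusted p under 0.05), and 7 without hypomethylated replicate 1. Ern1, Atf6 and Eif2ak3, which all cell types express, were lower in the same tumours in which the smooth muscle and endothelial means were lower, and the part of these cells in the 3 differences was not tested.

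**Figure D5:**
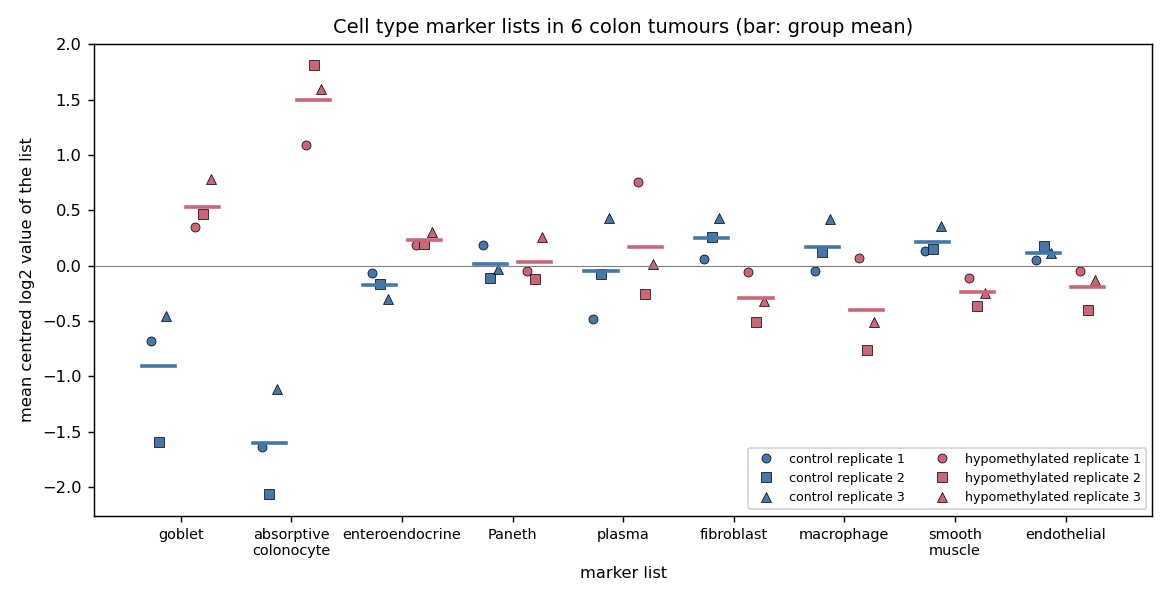
Mean centred log2 value of each marker list in the 6 tumours (vertical axis), with colours for the genotype, symbols for the replicate and bars for the group means (n = 3). Goblet, enteroendocrine and absorptive lists are higher in all 3 hypomethylated tumours, and the plasma cell list overlaps, with hypomethylated replicate 1 highest at 0.75.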

How the data were processed

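RNA of 6 mouse colon tumours was extracted, biotin-labelled and hybridised, per the labels' protocols; the descriptions of 4 of 6 samples name the MoGene-1_0-st-v1 array. The authors deposited 1 table of 28856 probe sets whose values are taken as log2, a base inferred from the values; the normalization is not given in the sources used here. In 100% of rows the median over the arrays is within 1e-06 of 0, so no level remains. A probe set was taken as bright (all values at 8 or above before centring) where its values fall on the coarser numerical step, an inference that held for 47.6% of probe sets. Probe sets with exactly 1 symbol in the platform annotation (21789; 1621 had several and 5446 none) were averaged per gene, giving 19938 genes, 19856 matched by Entrez number to RefSeq (GRCm38.p6); 999 had several probe sets. No pair of arrays was identical.

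The test was limma 3.58.1 (R 4.3.3), lmFit and eBayes without trend on all 6 tumours, two-sided, Benjamini-Hochberg over all genes, threshold 0.05, checked on simulated data. A fold is 2 raised to the difference. The members and gene lists were chosen with earlier results of these data known, and the promoter element search was added after values were seen. Named genes are the members, Dnmt1, up to 4 called genes of each pathway list by smallest p, 12 genes named in any case, the first 2 of each marker list, the 3 nearest profiles of 2 members and listed genes called at 2-fold or more; Atf6b, Creb3, Man1b1 and the carriers of stress elements were named after their values were seen. The replicate numbers of the titles do not pair the tumours: deviations of same-numbered tumours correlated at -0.29, -0.31 and -0.22. Alternatives were a replicate block, the description number as a random block, quantile normalization, median centring, array weights, robust eBayes, 2 subsets of genes, a threshold of 0.01 and leaving out each tumour. Arrays give no read depth; their number, 6, limits the precision.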

Additional observations from a re-analysis of the deposited data

How the results depend on the processing

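No member changed sign in any alternative run, and of the 82 other named genes only 4 that were not called did so: Atf3 (-0.07 to 0.12), Chac1 (-0.09 to 0.39), Sdf2l1 (-0.03 to 0.13) and Mzb1 (-0.27 to 0.43). Ern2 and Creb3l3 kept their calls throughout, and Xbp1, Creb3l4 and Atf4 were never called. Taking the replicate number as a block, although the numbers do not pair the tumours, lost the calls of Ern1 (-0.26, adjusted p = 0.102), Ddit3 (0.25, 0.0931) and Eif2ak3 (-0.18, 0.166); 3 members were then higher, 0 lower (limma; 1 lower at an unadjusted p under 0.05), and 11 pathway genes higher and 19 lower. Higher calls in ER-associated degradation fell to 0 under this block and at a threshold of 0.01 (limma; 5 and 6 at an unadjusted p under 0.05). Over all genes this block left 1543 higher and 2714 lower calls. Atf6 was called with the description number as a random block (-0.17, adjusted p = 0.0458) and with array weights (-0.18, 0.0287), which also gave 35 higher pathway genes. The description numbers are nested in genotype, so the random block cannot allow for a shared origin of the hypomethylated tumours. Its fitted correlation within a number was -0.17, and over all genes it gave 2783 higher and 5158 lower calls. Eif2ak3 was lost after quantile normalization (-0.15, 0.0623) and after median centring (-0.18, 0.0605), which left 1 member lower each. At a threshold of 0.01, 2 members were higher and 0 lower (3 lower at an unadjusted p under 0.05), with 9 pathway genes higher and 14 lower, and 1192 genes higher and 2319 lower overall.

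Leaving out each tumour in turn gave differences of -0.31 to -0.22 for Ern1, -0.22 to -0.13 for Atf6, 0.37 to 0.71 for Creb3l1, 0.20 to 0.31 for Ddit3 and -0.21 to -0.16 for Eif2ak3. Members called higher ranged from 2 to 4 and lower from 0 to 2, and pathway genes from 10 to 18 higher and 19 to 40 lower. Without control replicate 1 all genes gave 1407 higher and 2792 lower calls. Among the other named genes, 102 of the alternative values lost a call and 4 gained one, while 1022 kept theirs. With 3 tumours a group, centred values and no detection calls, small differences such as that of Xbp1 are bounded only by their intervals. The level of genes outside the bright class, such as Creb3l3, is not known, and their differences may be compressed if they lie near the floor.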
